A study of Populus trichocarpa with 28 samples.

Results

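Root was compared with shoot tissues in well-watered black cottonwood (Populus trichocarpa), using 8 of the 28 libraries of a drought study. These were the mRNA libraries of the control plants of the long-term experiment: 2 from root, and 2 each from apex, young leaves and mature leaves, which give the 6 shoot libraries. The plants were rooted stem cuttings, grown in a greenhouse at 20 to 35 C and given water to field capacity for 2 months. The controls were kept at that level afterwards, while the long-term drought plants, not used here, were dried down. The labels give no clone or genotype. RNA was extracted with CTAB, a detergent that separates nucleic acids from plant polysaccharides, treated with DNase I and made into stranded mRNA libraries.

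The root takes up water and minerals and anchors the plant, while the apex holds the shoot meristem and leaf primordia, and leaves photosynthesise. Each organ therefore uses its own set of genes beside those every cell needs. Antisense RNA is transcribed from the strand opposite to a gene. It can come from a promoter of its own or from a neighbouring gene whose transcript runs into the gene, and in plants some antisense RNAs are known to influence the gene they overlap.

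Every library came with read counts for 41335 genes, on both the sense and antisense strands. Filed sense totals were 51376870 to 58352615 reads in root and 21315792 to 29589429 in the shoot libraries, so root was sequenced more deeply. The log2 sense levels of libraries of one tissue correlated at r = 0.98 to 0.99 across 27501 genes. Across the same genes, root libraries correlated with apex libraries at 0.758 to 0.779, with young leaf libraries at 0.721 to 0.735 and with mature leaf libraries at 0.717 to 0.727. These are descriptions, since genes are not replicates. The gene IDs carry no gene names, and 0 of the 41335 matched the reference table of 34621 poplar genes, so genes are given by ID with no function, and the tissue labels could not be checked against marker genes. No label ties the pair of libraries of a tissue to separate plants. If they came from one plant or pool, the p-values cover only differences among libraries. The root files are marked as merged in their names, with no word on what was joined. In bulk tissue, fewer cells of a type and less RNA per cell cannot be told apart.

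The filed sense counts of the shoot libraries behaved as counts of both strands, and those of the root libraries did not. Among genes with at least 20 antisense reads in a library, the filed sense count was exactly equal to the antisense count in 101 to 120 genes of each shoot library, or 10.4% to 12.3%. It was equal in 0 and 1 genes of the root libraries. The filed sense count was below the antisense count in 24.5% to 29.4% of such genes in the shoot libraries and in 39.3% and 42.5% in root, which a count of both strands gives only where reads were set aside. Potri.013G139800, shown because its reads are nearly all antisense and chosen after its values were seen, had 9962 sense and 9959 antisense reads in apex library 63, but 20 sense and 743 antisense reads in root library 63. Reads set aside as ambiguous, which overlap more than one gene, made up 0.851% to 2.56% of the filed sense files in shoot and 0.113% and 0.123% in root. Summed over genes, antisense exceeded filed sense by 139181 to 524212 reads in the shoot libraries, fewer in each of them than its 225907 to 627022 ambiguous reads. In root the excess was 578111 and 501982 reads, against 68606 and 65653 ambiguous reads. The counting options are not stated, so this reading of the files rests on these values. The sense results below therefore use the filed shoot counts minus the antisense counts, which took off 1.01% to 3.51% of the filed shoot reads. A further 402 genes whose antisense count in a shoot tissue exceeded the filed sense count were left out of the sense and ratio tests. Reads over overlapping genes on opposite strands remain missing from the shoot sense counts. Antisense counts were used as filed.

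The sense transcriptomes of root and shoot differed in most of the genes tested. Levels are given as CPM, counts scaled to the library's effective size (its sense total corrected for composition by TMM). Against the mean of the shoot tissues, 8731 of 27501 genes were higher in root and 7934 were lower, which is 31.7% and 28.8% of the genes tested and 60.6% in all (edgeR's quasi-likelihood test, Benjamini-Hochberg adjusted p under 0.05). The median log2 difference was 1.45 among the genes higher in root and -1.54 among the lower ones, and 0.04 over all tested genes. Both root libraries lay above all 6 shoot libraries in 6800 genes, 24.7% of those tested, and below all 6 in 6306 genes, or 22.9%. With library totals in place of TMM scaling, the median difference of all genes moved from 0.04 to 0.59, and 14701 genes were called higher in root and 4941 lower. The changes given are thus relative to the bulk of genes in each library.

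Root differed from each shoot tissue by a like number of genes. The 3 comparisons share the same 2 root libraries. Against the apex, 7561 genes were higher in root and 8949 lower, or 27.5% and 32.5% of those tested (60% in all). Against young leaves, 7963 were higher and 8028 lower, or 29% and 29.2% (58.1% in all). Against mature leaves, 8610 were higher and 7471 lower, or 31.3% and 27.2% (58.5% in all). These splits also moved with library totals, to 9731 higher and 6365 lower against the apex, 13777 and 5111 against young leaves, and 15011 and 4693 against mature leaves. Against apex and young leaves, the order also turned when some single leaf libraries were left out.

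A stricter set consisted of genes called in the same direction against apex, young leaves and mature leaves. It held 4267 genes higher in root, 15.5% of those tested, and 4458 genes lower in root, 16.2%. With library totals the counts were 7312 and 2999. The order of the main counts also turned when some single leaf libraries were left out. Some genes had shoot antisense reads, their own or a neighbour's, above 10% of the gene's highest sense level. They made up 500 of the 4267 genes and 294 of the 4458, against 2584 of all 27501 tested. Without such genes, 3869 were higher and 4114 lower of 24928 tested. Whether missing shoot reads add to the root-higher set was not tested. Among the genes higher in root the median fitted log2 difference was 2.56, and 2.35 from the summed counts of each group with totals under 3 raised to 3 counts. Among the genes lower in root the medians were -2.50 and -2.57. On the summed levels, the largest differences were mostly on the shoot side: 146 of the genes lower in root passed 1024-fold, against 22 of those higher in root. The summed shoot level pools 3 unlike tissues, so a single high tissue can set it, and the levels rest on TMM scaling. How far either shapes these counts was not tested. The same order held at 16-fold, with 1425 genes lower and 1079 higher, and at 256-fold, with 398 lower and 96 higher.

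**Figure D1:**
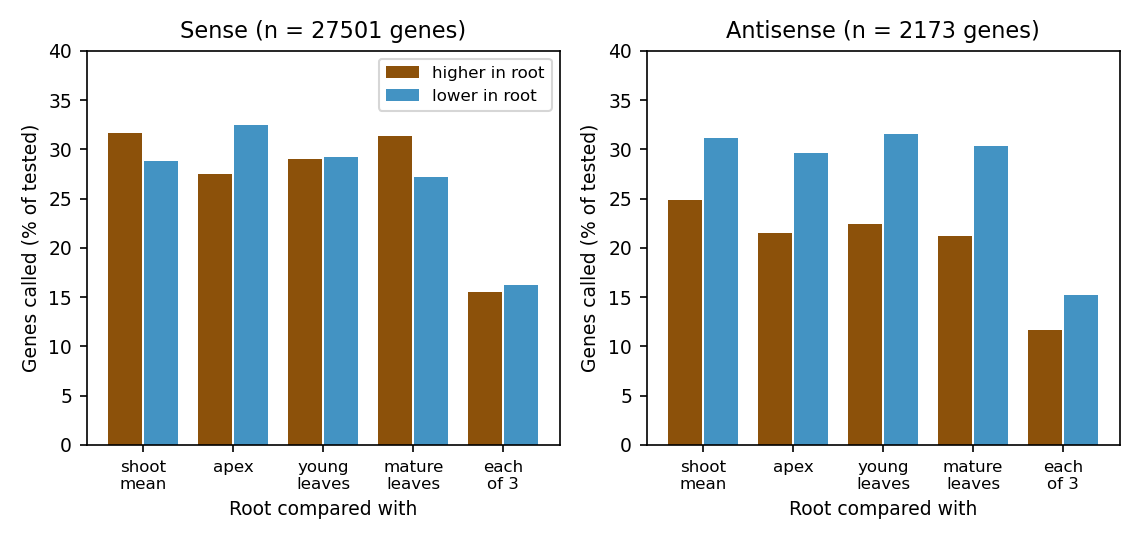
Share of tested genes called higher (brown) or lower (blue) in root against the mean of the shoot tissues, against each shoot tissue, and against all 3 at once, for sense counts (left) and antisense counts (right). The bars for each of the 3 tissues at once stand at 15.5% and 16.2% for sense genes and 11.7% and 15.2% for antisense genes.

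**Figure D2:**
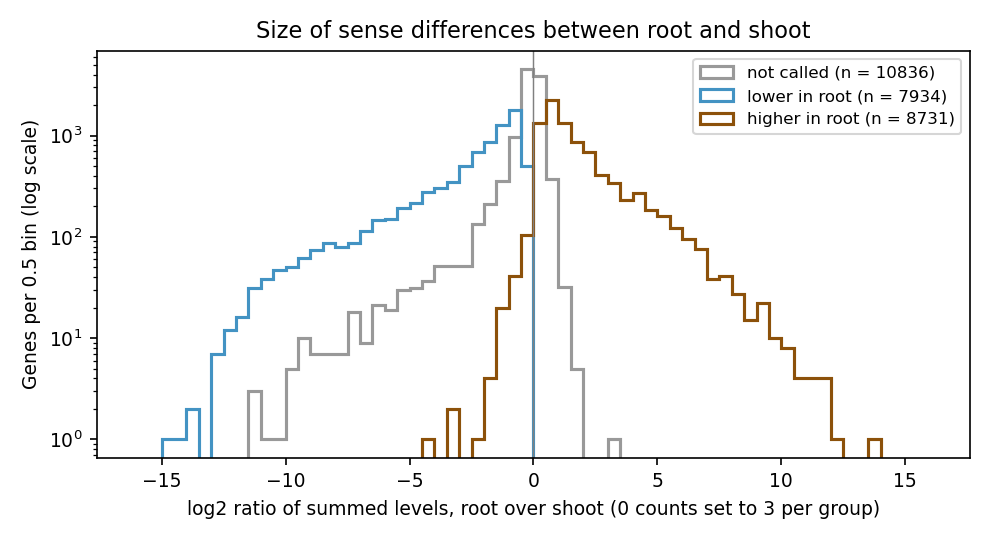
Number of genes (log scale) by the log2 ratio of summed sense levels, root over shoot, for genes called higher in root, called lower in root or not called; group totals under 3 counts were set to 3. The blue curve reaches farther from 0 than the brown one, with 155 and 22 genes past 1024-fold; 173 genes called higher on the mean of log levels have a ratio under 1 on summed levels.

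Genes of the stricter set took up a large and unequal part of the reads. The 4267 genes higher in root held 21.7% and 20.5% of sense reads in the root libraries, and 3.19% to 4.80% in the shoot libraries. The 4458 genes lower in root held 6.18% and 6.29% of root reads. In the shoot their share was 24.7% and 26.1% in apex, 43.0% and 49.1% in young leaves and 46.4% and 51.3% in mature leaves. The apex thus stood between root and leaves in this share, which describes genes chosen by the same contrast and is no test. Among the genes lower in root, the shoot tissue with the highest level was mature leaves for 2044 (45.9%), young leaves for 1518 (34.1%) and apex for 896 (20.1%). Among the genes higher in root, the shoot tissue with the highest level was apex for 1840 (43.1%), mature leaves for 1601 (37.5%) and young leaves for 826 (19.4%). The same shares over all tested genes were not computed, so nothing particular to either set is read from them.

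Some genes were detected on one side only. At a level of 1 CPM, 1110 genes (2.71%) were reached in both root libraries and in none of the 6 shoot libraries. Another 935 (2.28%) were reached in all shoot libraries and neither root library, and 17786 (43.45%) in all 8 libraries. These shares are of all genes kept on the sense strand. The corresponding counts for a single shoot tissue were 402 genes in apex, 154 in mature leaves and 53 in young leaves. At higher levels the order turned: 135 genes reached 10 CPM in both root libraries while staying under 1 CPM throughout the shoot, against 202 genes the other way round, and 11 against 26 genes did so at 100 CPM. When root counts were thinned to the depth of the shoot libraries, the 1 CPM counts were 1067 root genes and 949 shoot genes. Presence of any read gave another picture. Of genes with reads in both root libraries, 967 had 0 in all 6 shoot libraries, 701 after thinning and 875 with the sense counts as filed. Of genes with reads in all 6 shoot libraries, 252 had 0 in both root libraries, 379 after thinning and 628 with the sense counts as filed. An absence of reads allows up to 3 counts per library group, counting error only. Reads over overlapping genes on opposite strands are also missing from the shoot sense counts, so the root-only counts may include genes read in shoot. How many was not tested.

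The gene that led the root-side differences, by the rule for naming genes, was Potri.008G131200, which took the largest share of root reads of any gene, 1.52%. It had 12540 and 10150 CPM in the root libraries, 6.97 and 6.90 CPM in apex and 0 counts in all 4 leaf libraries. Root and shoot did not overlap, which the rule required. Its level was 1646-fold higher in root than in apex (log2 difference 10.68, SE 0.45, adjusted p = 3.4e-06, edgeR), at least 169700-fold higher than in young leaves and at least 133700-fold higher than in mature leaves, where the bound rests on a floor of 3 counts per tissue.

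The gene that precedes it in the numbering, Potri.008G131100, was looked up because of its position and chosen after its values were seen. It had 3211 and 2611 CPM in root, 24.8 and 20.0 CPM in apex, 0.379 and 0.192 CPM in young leaves, and 0.107 and 0 CPM in mature leaves. Both genes were thus high in root, lower in apex and near or at 0 in leaves. The log2 difference of Potri.008G131100 between root and apex was 7.02 (SE 0.38, adjusted p = 1.57e-06, edgeR). Neighbouring genes of like sequence could share reads, and this was not tested.

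The other sense gene named on the root side was Potri.006G008300, with 28030 and 22015 reads in root and listed at 0 in all 6 shoot libraries. No fold is drawn from these zeros, since reads over opposite genes are missing from the shoot sense files. The antisense count of the adjacent Potri.006G008400 was 28030 and 22014 in root, equal to the sense count of Potri.006G008300 to within 1 read. In shoot that antisense count was 49 and 49 in apex, 20 and 18 in young leaves and 9 and 13 in mature leaves, while Potri.006G008300 was listed at 0. Measured by the antisense files, which set aside only 55 to 146 ambiguous reads in any of the 8 libraries, the difference was 298-fold (95% exact counting interval 255 to 350), with a log2 difference of 8.45 (SE 0.21, adjusted p = 2.65e-14, edgeR). Root and shoot did not overlap by either count, which the rule required of the sense count.

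On the shoot side the 2 sense genes named were almost unread in root. Potri.009G129900 had 0 and 1 reads in the root libraries. Its shoot levels were 10.9 and 20.4 CPM in apex, 1006 and 1783 CPM in young leaves, and 106 and 208 CPM in mature leaves. On summed counts the shoot had 71750 times the root level, with a 95% exact counting interval of 12880 to 2834000. The fitted log2 difference, root minus the shoot mean, was -13.82 (adjusted p = 2.71e-06, edgeR). The gene was highest in young leaves, and its 3 shoot tissues did not overlap one another.

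Potri.001G015400 also had 0 and 1 root reads. It had 36.0 and 50.6 CPM in apex, 181 and 189 CPM in young leaves and 300.2 and 224 CPM in mature leaves. Here the order ran from apex through young leaves to mature leaves, again without overlap. The shoot to root ratio of summed counts was 21300 with an interval of 3822 to 841200. The fitted log2 difference, root minus the shoot mean, was -13.59 (adjusted p = 9.47e-08, edgeR).

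Potri.017G114600 took the largest share of reads in both leaf tissues, 3.26% in young and 2.94% in mature leaves, and was chosen after its values were seen. It had 4.41 and 6.17 CPM in root. In apex it had 6184 and 8929 CPM, in young leaves 24430 and 52530 CPM, and in mature leaves 27060 and 45170 CPM. Young and mature leaves overlapped, while root lay below every shoot library. The log2 difference between root and the shoot mean was -12.02 (SE 0.78, adjusted p = 2.13e-06, edgeR).

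**Figure D3:**
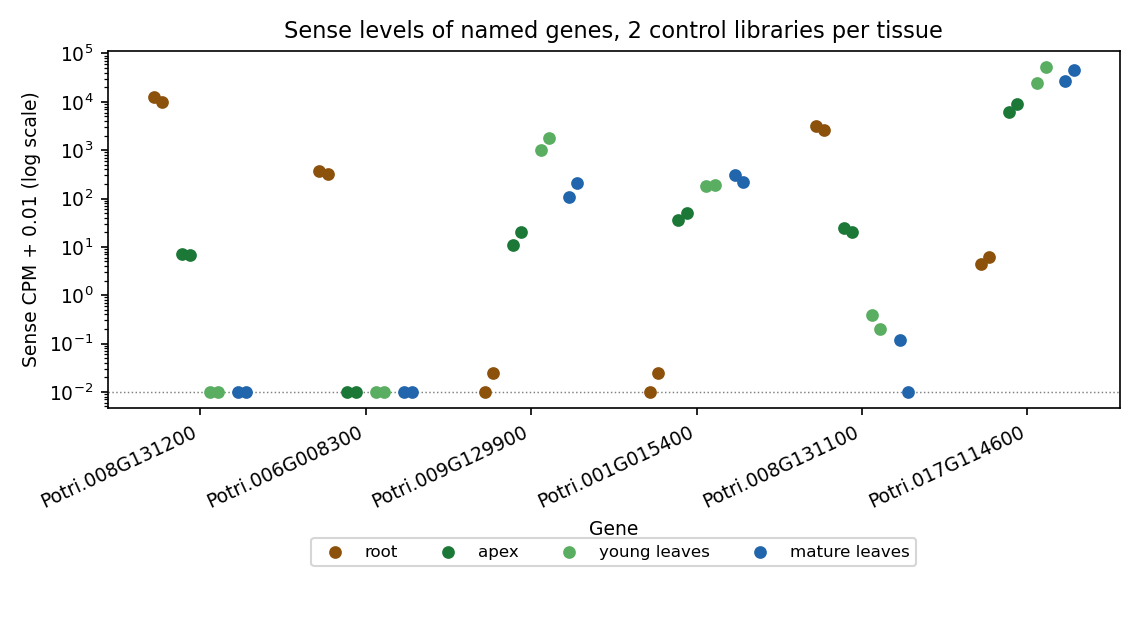
Sense CPM plus 0.01 (log scale) of 6 named genes in the 2 control libraries of each tissue; points on the dotted line are 0 counts. In each gene both root points lie on one side of all 6 shoot points, as for Potri.008G131200 at 12540 and 10150 CPM in root and at most 6.97 CPM in shoot. The naming rule required this of the genes it chose, and the others were chosen after their values were seen.

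The most read genes of root and shoot were largely different. Of the 20 genes with most reads in root and the 20 with the highest mean level in shoot, 4 were shared. The 20 root genes held 8.24% of root reads and 3.64% of shoot reads, and 6 of them belonged to the stricter root set, which held 15.5% of tested genes. The 20 shoot genes held 10.6% of shoot reads and 1.68% of root reads, and 15 of them belonged to the genes lower in root than in every shoot tissue, which were 16.2% of tested genes. Both lists were picked for high levels on one side, which favours such calls, so these counts are a description. The share of reads in the 20 most read genes of each library was 8.15% and 8.39% in root, 8.50% and 8.75% in apex, and 11.6% to 16.2% in the leaf libraries.

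Genes of the stricter set often lay next to one another in the gene numbering, which follows the chromosomes named in the IDs. Of 2782 root-higher genes whose next gene was tested, 630 (22.7%) were followed by another root-higher gene, where 14.9% of all next genes were root-higher. For root-lower genes, 662 of 3216 (20.6%) were followed by another, where 16.6% of all next genes were root-lower. The longest run of root-higher genes held 9 IDs in a row on chromosome 15, from Potri.015G119200 to Potri.015G120000. Potri.015G119800 had the highest level among them, with 19.3 CPM in root against 0.0873 in apex, 4.98 in young leaves and 3.36 in mature leaves (summed counts of both libraries). Potri.015G119900 went from 2.11 CPM in root to 0 in apex, 0.0224 in young leaves and 0.0285 in mature leaves. The longest runs of root-lower genes held 5 IDs, and there were 6 of them. One of these began with Potri.003G085500 on chromosome 3, at 0.0274 CPM in root, 1.08 in apex, 49.1 in young leaves and 179 in mature leaves. These runs were picked for their length after the values were seen, and neighbours that overlap or share sequence can share reads.

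On the antisense strand, root had fewer reads relative to sense than the shoot libraries, and the order of the means turned when the 20 genes with most antisense reads were set aside. Root had 1.41 and 1.38 antisense reads per 100 sense reads. Apex had 1.55 and 1.63, young leaves 3.15 and 2.94, and mature leaves 4.86 and 6.03. Both root libraries thus lay below all 6 shoot libraries. The mean was 1.40 ± 0.0205 in root (SD, n = 2) and 3.36 ± 1.79 in shoot (SD, n = 6; p = 0.0714 in an exact permutation test, two-sided, where no split of 2 and 6 libraries can give a smaller value). Without the 20 genes with most antisense reads over all 8 libraries, root had 0.962 ± 0.0160 (SD, n = 2) and the shoot 0.884 ± 0.0723 (SD, n = 6; p = 0.143 in the same exact test), so the order of the means turned. The libraries then overlapped, with 0.973 and 0.9504 in root and 0.962 in mature leaf library 63. The 6 shoot libraries come in pairs from 3 tissues, so each shoot SD includes differences between tissues. Both exact tests treated all 8 libraries as independent, which the labels do not show. The 20 genes held 31.0% and 31.2% of antisense reads in root, 40.6% and 45.1% in apex, 72.8% and 74.3% in young leaves, and 80.2% and 84.7% in mature leaves. Antisense levels of at least 1 CPM in both libraries were found for 802 genes in root, 811 in apex, 838 in young leaves and 823 in mature leaves. By reads alone, without regard to depth, 1957 and 1728 genes had at least 20 antisense reads in the deeper root libraries, against 874 to 1098 in the shoot libraries.

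**Figure D4:**
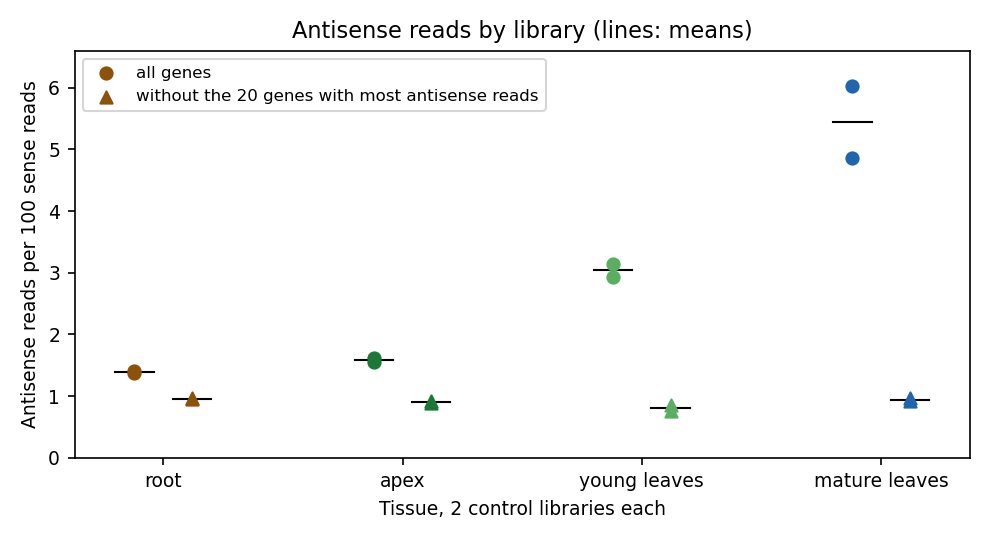
Antisense reads per 100 sense reads in each of the 8 libraries, for all genes (circles) and without the 20 genes with most antisense reads (triangles); lines are means of 2 libraries. The circles run from 1.38 in root to 6.03 in mature leaves, while all triangles lie between 0.756 and 0.973.

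Gene by gene, 2173 genes had enough antisense reads to be tested, scaled by the sense libraries. Relative to the shoot mean, 542 were higher in root (24.9%) and 675 lower (31.1%), or 56% of genes in all. Both root libraries lay above all 6 shoot libraries in 437 genes (20.1%) and below them in 504 (23.2%). With library totals the counts were 1010 higher and 462 lower, and with antisense counts scaled by their own totals 716 and 601. With no count filter they were 1031 and 793 of 19680 tested. The order of the main counts also turned when some single leaf libraries were left out. Antisense counts were higher in root in 467 genes and lower in 643 against apex (21.5% and 29.6%), in 487 and 687 against young leaves (22.4% and 31.6%) and in 461 and 659 against mature leaves (21.2% and 30.3%). In all 3 comparisons, which share the root libraries, 255 genes were higher (11.7%) and 331 lower (15.2%). The median fitted log2 difference of these sets was 2.54 and -3.26, or 2.44 and -3.40 with group totals under 3 raised to 3 counts. Over all 2173 genes the median was -0.18, or -0.32 with that floor. The 255 genes held 17.5% and 17.98% of antisense reads in root and 0.653% to 2.83% in shoot, and the 331 genes 9.30% and 8.97% in root and 38.1% to 74.7% in shoot. These shares describe genes chosen by the same contrast and are no test. The 20 genes with most antisense reads include 9 of the 331 and 2 of the 255.

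Potri.004G019200 and Potri.008G131100 were the genes named on the root side of the antisense counts. Antisense reads of Potri.004G019200 numbered 607 and 609 in root, 1 and 3 in apex and 0 in the 4 leaf libraries. It had 0 sense reads in root. The log2 difference from the shoot mean was 9.75 (SE 0.43, adjusted p = 1.94e-10, edgeR), a fitted value that depends on the prior count, and the root level was at least 124-fold that of young leaves and at least 97.7-fold that of mature leaves.

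Antisense reads of Potri.008G131100 numbered 616 and 286 in root, 1 and 1 in apex and 0 in leaves, at least 92.0-fold higher than in young leaves (adjusted p = 1.83e-09 against the shoot mean, edgeR). The sense strand of the same gene had 247102 and 179810 reads in root. For comparison, in the 200 genes with the highest sense levels the median antisense count was 0.0181% and 0.0121% of the sense count in the root libraries. Whether reads of a strongly read sense strand add to this antisense count was not tested.

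On the shoot side, Potri.005G239200 and Potri.008G173800 were named. Antisense reads of Potri.005G239200 stood at 1.20 and 1.35 CPM in root, 1721 and 2633 CPM in apex, 5815 and 11380 CPM in young leaves, and 4234 and 7069 CPM in mature leaves. Root lay below every shoot library, as the rule required, and the leaf tissues overlapped. The shoot level was 4008-fold the root level (95% exact counting interval 3470 to 4655; log2 difference -11.86, SE 0.59, adjusted p = 1.47e-10, edgeR). Its antisense reads outnumbered its filed sense reads in all 8 libraries, with 54 and 89 sense reads against 92 and 93 antisense reads in root.

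Potri.008G173800 had 0 antisense reads in root, 65 and 51 in apex, 534 and 424 in young leaves and 683 and 766 in mature leaves. On summed counts the shoot level was at least 895-fold higher, against a floor of 3 counts over the root libraries. The fitted test against the shoot mean gave an adjusted p of 1.08e-10 (edgeR). The order ran from apex through young leaves to mature leaves without overlap.

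Among the 20 genes with most antisense reads, 12 were lower in root than in the shoot mean, 3 were higher and the others were not called, where 31.1% and 24.9% of all tested genes were called. The 20 were picked on reads summed over all 8 libraries, to which the leaf libraries gave most, so nothing is read from these counts. Potri.013G139800, introduced above, led the list. It had 9.65 and 12.9 antisense CPM in root, 362 and 437 in apex, 7290 and 5317 in young leaves and 10340 and 18340 in mature leaves (log2 difference -8.19, SE 0.48, adjusted p = 7.2e-10, edgeR). Potri.001G400200, also chosen after its values were seen, did not keep one direction. Its antisense level was 180 and 135 CPM in root, 45.5 and 80.8 in apex, 859 and 1285 in young leaves and 16390 and 21120 in mature leaves. Root was above apex (log2 difference 1.32, SE 0.37, adjusted p = 0.00703, edgeR) and below mature leaves (log2 difference -6.90, SE 0.47, adjusted p = 4.26e-09, edgeR).

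**Figure D5:**
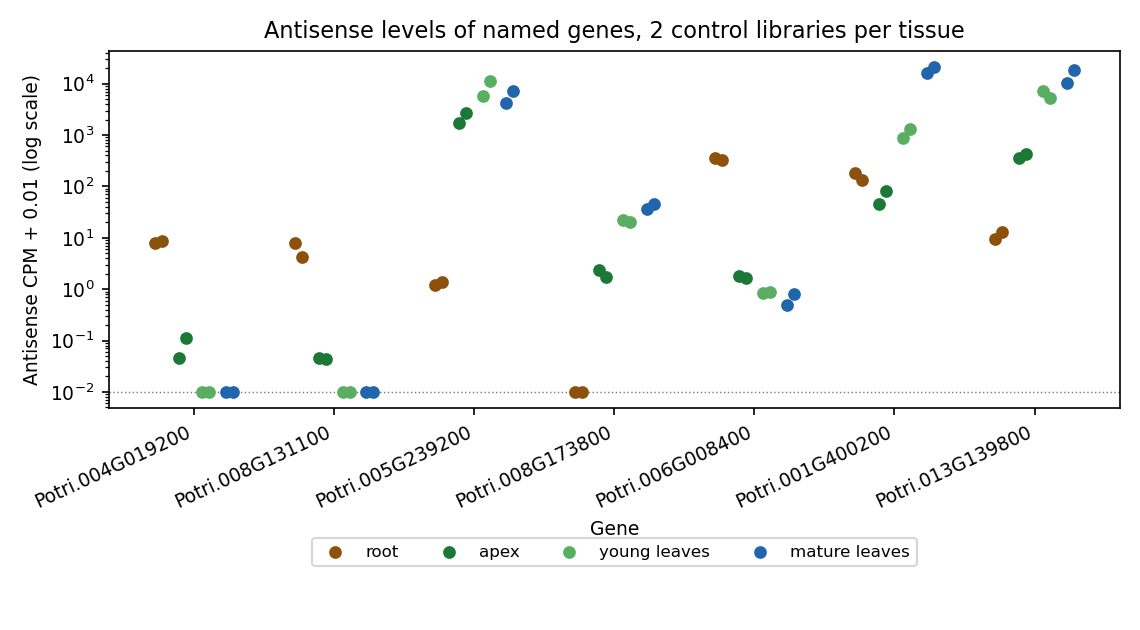
Antisense CPM plus 0.01 (log scale) of 7 named genes in the 2 control libraries of each tissue; points on the dotted line are 0 counts. Root lies above or below all shoot points in 6 genes, and between apex and leaves in Potri.001G400200. The naming rule required such separation of the genes it chose.

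Some antisense counts of root were matched by the sense count of a neighbouring gene. Of the 802 genes with at least 1 antisense CPM in both root libraries, 622 (77.6%) had a neighbour in the numbering whose root sense count was at least as large in both libraries. In 12 of them the neighbour's sense count was within 1% of the antisense count, as for Potri.006G008400. The share of genes with such a neighbour among all genes was not computed, and strands of neighbours were not known, so this is a description.

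The balance of antisense to sense reads was tested in the 1428 genes with enough reads on both strands. The ratio was higher in root in 378 genes and lower in 369, which is 26.5% and 25.8% of those tested and 52.3% in all (edgeR, strand by tissue term). The median log2 difference was 2.37 in the first set, -2.49 in the second and 0.04 over all 1428 genes. The split varied with the processing. With the sense counts as filed, 821 genes were higher and 384 lower. With no count filter it was 505 and 315, and with antisense counts scaled by their own totals 421 and 331. Leaving out genes with much antisense nearby gave 289 higher and 177 lower of 922 tested.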

How the data were processed

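Whole-number read counts per gene, for the sense and the antisense strand, were used as deposited. Tools listed in the submitters' processing notes are DESeq2, HTSeq 0.6.0 and TopHat2 2.1.0; what each did, the build and the counting options are not given in the sources used here. Total counts per library are raw, and 5 closing lines per file that name no gene (reads in no gene: 2.43% to 5.52% of the sense files) stayed out of totals and tests. Intron counts were not used here.

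In shoot libraries the antisense count was subtracted from the filed sense count (floored at 0), a departure from the planned use of the counts as filed, chosen after seeing the data. One model over the 8 libraries, with a term per tissue, was fitted with edgeR 4.0.16 (limma 3.58.1, R 4.3.3): default expression filter (count of 10, total of 15), TMM scaling, robust quasi-likelihood test. Adjusted p-values are Benjamini-Hochberg over all genes tested. The shoot mean weights the 3 tissues equally on the log scale. Antisense counts used the effective sense library sizes; the ratio model had a term per library and a strand by tissue term. Standard errors are the log2 difference over the root of F. Intervals are exact at 95% and cover counting error only.

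Genes were named by a rule: at most 2 per direction and strand, with the largest log2 difference among genes called against each shoot tissue, without overlap of root and shoot libraries, and with at least 20 CPM (sense) or 2 CPM (antisense) on the high side. The members, lists and rules were chosen with earlier results of these data known. Of the 30 gene lists by product name, none had a matched member. Fits were tested on simulated data with known changes in a small part of the genes, balanced between directions. The simulated shoot tissues had equal means, so the choice of scaling was not tested there. Alternatives included DESeq2 1.42.0, other scalings, no filter, thinning and leaving out each library.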

Additional observations from a re-analysis of the deposited data

How the results depend on the processing

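Alternatives moved few counts by more than 1.5 times, where calls in both directions were added. By direction, library totals moved several counts past that. Against the shoot mean, sense genes went from 8731 higher and 7934 lower to 14701 and 4941. Of the 16665 main calls there, 13671 were kept in the same direction. The stricter set went from 4267 and 4458 to 7312 and 2999, and antisense genes from 542 and 675 to 1010 and 462. With no count filter, antisense genes also moved past it, to 1031 higher and 793 lower of 19680 tested. A test against a 2-fold threshold left 8438 sense genes against the shoot mean, 4674 in the stricter set, 8695 against apex, 8618 against young leaves, 9111 against mature leaves, and 749 antisense genes. DESeq2 called 16289 sense genes against the shoot mean (main count 16665) and 1082 antisense genes (1217). With sense counts as filed, the ratio was called in 1205 genes against 747, and 641 of these were shared in direction; without genes with much nearby antisense it was called in 466. Genes with reads only in shoot numbered 379 with thinned root counts and 628 as filed, against 252. The difference in antisense reads per 100 sense reads, root minus shoot, was -1.96, and turned to 0.0775 without the 20 genes with most antisense reads. The cause of these moves was not tested. The as-filed, both-strand and nearby-antisense alternatives, and thinning of the presence counts, were chosen after seeing the data. All 247 values of named genes under an alternative kept their direction and side of the threshold. These genes were picked for large differences or after their values were seen, which favours this outcome, so nothing is read from it about other genes.

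Leaving out one library at a time gave 13166 to 17246 sense calls against the shoot mean, 7071 to 8498 in the stricter set, 988 to 1474 antisense calls and 563 to 864 ratio calls; where 1 library of a tissue remained, it was assumed to vary like the others. The antisense difference ran from -2.32 to -1.43. The title numbers 63 and 70 occur in all tissues, and the labels do not say what they mark. Deviations of same-numbered libraries correlated at 0.0692 to 0.496 between tissues, positive in each pair of tissues, but with 2 numbers a pairing cannot be settled and none was assumed. With a replicate block, 17521 sense genes, 1255 antisense genes and 765 ratios were called. The 2 root libraries limit every comparison. Shoot depth and the reads missing over opposite genes limit what can be called absent in shoot.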

Other observations

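The share of genes higher in root than in every shoot tissue differed along the genome. It was 20.9% of 748 tested genes on chromosome 19 and 23.3% of 746 tested genes on unplaced sequence (IDs with a T), and 12.8% to 16.9% on chromosomes 1 to 18. The share of genes lower in root was 14.0% on chromosome 19, 12.6% on unplaced sequence and 14.0% to 18.5% on the others. These shares were not tested.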
